A study of Mus musculus with 12 samples.

Results

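The nuclear receptor family including PXR is taken here as a list of 41 genes, found by symbol in the 2 deposited tables of gene counts. Of the 41 members, 38 had a row in either table, among 32772 genes in all. There were 37 members in both tables, and Nr0b2 was in the table of the injected mice only. Nr2e1, Nr2e3 and Nr0b1 had no row and were not analysed here.

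Nuclear receptors are transcription factors that are switched by small lipid-soluble ligands such as steroids, thyroid hormone, retinoids, oxysterols, bile acids and fatty acids. Most bind DNA as a pair, and many share the retinoid X receptors (RXRs) as their partner. In white fat, receptors of this family are known for their part in fat cell formation, lipid storage and the response to hormones. The pregnane X receptor (PXR, gene Nr1i2) is best known from liver and intestine, where steroids and drugs activate it and it switches on genes of drug metabolism.

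The tissue was gonadal white fat of the inbred mouse strain C57BL/6N, with 4 groups of 3 libraries. HFD PCN mice ate a high-fat diet and received 50 mg/kg of PCN (pregnenolone 16alpha-carbonitrile, a steroid that activates mouse PXR) into the peritoneum, once a day for 4 days. HFD Vehicle mice ate the same diet and were injected on the same days with the carrier, 30% DMSO. HFD mice ate the high-fat diet and Chow mice regular chow, with no injection stated for either. Diets began at 6 weeks of age and lasted 18 weeks. Each library has a number of its own (HFD PCN 5, 11 and 27; HFD Vehicle 23, 50 and 55; HFD 4, 30 and 38; Chow 8, 17 and 19). Whether each library came from its own mouse is not spelled out in the labels, so a p-value speaks only of the spread among these samples, which may be technical.

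Depth ran between 11090117 and 27408092 counts per library. Duodenum is named as the source in the labels, whereas the title of the series names fat. Fabp4, the fatty acid binding protein of fat cells, was at 2842 CPM (a gene's part of the counts of its library, per 1000000) or more in every library. The 8 intestinal markers with a row were low: Epcam reached at most 0.291 CPM and Cdx1 0.0596 CPM, and Lgals4 was the highest at 37.1 CPM. HFD Vehicle 50 stood apart from its group, with 5342 CPM summed over 15 macrophage markers, against 14212 and 15325 CPM in HFD Vehicle 23 and 55 and 4710 to 8121 CPM in Chow. Mitochondrially encoded genes took 7.85% of its counts, against 7.30% to 29.6% in Chow and 2.30% to 3.47% in the other 8 libraries. The chi-square per degree of freedom between its counts and those of Chow 17 was 32.9, smaller than the 62.0 between Chow 17 and Chow 8. For HFD Vehicle 50 it was 85.5 and 160 against Chow 8 and Chow 19, and 234 and 259 against HFD Vehicle 23 and 55. In these measures the library labelled HFD Vehicle 50 went against its label. Its adipocyte and adipose progenitor marker sums also lay within the Chow range, but not all markers did so. Mesothelial markers summed to 92.8 CPM in it, against 9.91 to 36.0 CPM in Chow and 13.8 to 31.1 CPM in HFD Vehicle 23 and 55. T and NK cell markers summed to 35.3 CPM in it, against 12.6 to 23.6 CPM in Chow and 152 to 166 CPM in HFD Vehicle 23 and 55. Whether the label is right was not tested, and the log2 fold changes of members that involve HFD Vehicle are given below with and without it.

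Nr1i2 (PXR; chr16:38248323-38294824, minus strand, GRCm38) was almost absent from the reads. It had 1, 1 and 0 counts in HFD PCN 5, 11 and 27, and 5, 0 and 1 counts in HFD Vehicle 23, 50 and 55. HFD 4, 30 and 38 had 0, 0 and 1 counts, and Chow 8, 17 and 19 had 0, 0 and 1. In all, 6 of 12 libraries held a read, and the 10 counts among 224834940 came to 0.0445 CPM (exact Clopper-Pearson 95% interval 0.0213 to 0.0818, for counting error only). HFD PCN libraries together had 2 counts against 6 in HFD Vehicle, 0.287 times the rate, with an interval from counting error of 0.0283 to 1.60, so no difference was detectable at this depth. HFD Vehicle 50 held none of these counts, and without it the ratio was 0.230, with an interval of 0.0227 to 1.29.

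The constitutive androstane receptor Nr1i3, a second sensor of drugs in liver, was as weak. It had 1, 9 and 1 counts in HFD PCN, 0, 0 and 2 in HFD Vehicle, 1, 9 and 0 in HFD and 0, 0 and 0 in Chow. A single library each of HFD PCN and HFD held 9 of these counts, and 74.9% of the Nr1i3 exon bases are also covered by Tomm40l, so reads cannot be assigned with certainty. The bile acid receptor Nr1h4 (FXR) was low but present. Its raw counts were 79, 53 and 49 in HFD PCN, 32, 19 and 3 in HFD Vehicle, 38, 37 and 18 in HFD and 34, 23 and 7 in Chow. The small heterodimer partner Nr0b2, a repressor that FXR induces in liver, had 0, 0 and 0 counts in HFD PCN and 1, 0 and 0 in HFD Vehicle.

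A member was taken as detected where all 3 libraries of at least 1 group reached 1 CPM. That held for 29 of the 38 members with a row. The same number was reached with 0.5 CPM or with 10 counts as the limit. The 9 others were Nr1i2, Nr1i3, Nr0b2, Hnf4a (a liver and gut receptor), Rorb, Esr2, Esrrb, Nr5a1 (the steroidogenic receptor of adrenal and gonad) and Pgr (the progesterone receptor). The highest value any of these 9 reached in 1 library was 1.17 CPM.

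Levels between genes were compared as CPM per kilobase of merged exons. The liver X receptor alpha Nr1h3, a sensor of oxysterols, was the most abundant member by its median over the 12 libraries. It averaged 38.3 ± 3.46 CPM per kilobase in HFD PCN, 36.3 ± 2.43 in HFD Vehicle, 32.6 ± 0.977 in HFD and 37.1 ± 3.72 in Chow (SD, n = 3 each). Levels per kilobase are on library totals, of which mitochondrially encoded genes took 7.30% to 29.6% in Chow, so they do not compare groups. With scaling over all 12 libraries, Nr1h3 averaged 91.7 CPM in HFD PCN, 89.7 in HFD Vehicle, 81.6 in HFD and 102 in Chow. By the median per kilobase, Rxra followed Nr1h3, and then came Nr1h2 (liver X receptor beta) and the thyroid hormone receptor Thra. These 4 alone had a median of at least 10 CPM per kilobase. In all, 20 members had a median of at least 1 CPM per kilobase. This order covers the listed members only. Pparg, a nuclear receptor outside the list, was at 106 to 331 CPM in the 12 libraries, against at most 103 CPM for Nr1h3. These 2 ranges are not divided by exon length.

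The next members in median level were Rxrb, the orphan receptor Rora, the oestrogen-related receptor Esrra, Nr2f6, Rarg and Nr2c2. Nr2f6 and Nr2c2 share 54.4% and 31.2% of their exon bases with Ocel1 and Mrps25, and Rarb shares 38.4% with Top2b, so these 3 levels are uncertain. The lowest detected members were Esrrg, Nr5a2 and Vdr. Esrrg averaged 0.171 ± 0.020 CPM per kilobase in HFD and 0.177 ± 0.050 in Chow. Ranges of neighbours in this order often overlapped. Of 28 neighbour pairs, the libraries overlapped in 16 within HFD and in 25 within Chow. These ranges run over the libraries of a group, on library totals. Genes were not compared within each library, so an overlap does not show that their order is unsure. The pairs that stood clear within HFD included Nr1h3 above Rxra, Rxra above Nr1h2 and Nr1h2 above Rxrb. Within Chow, Rxra led the order at 38.6 ± 6.74 CPM per kilobase but overlapped with Nr1h3 at 37.1 ± 3.72.

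**Figure D1:**
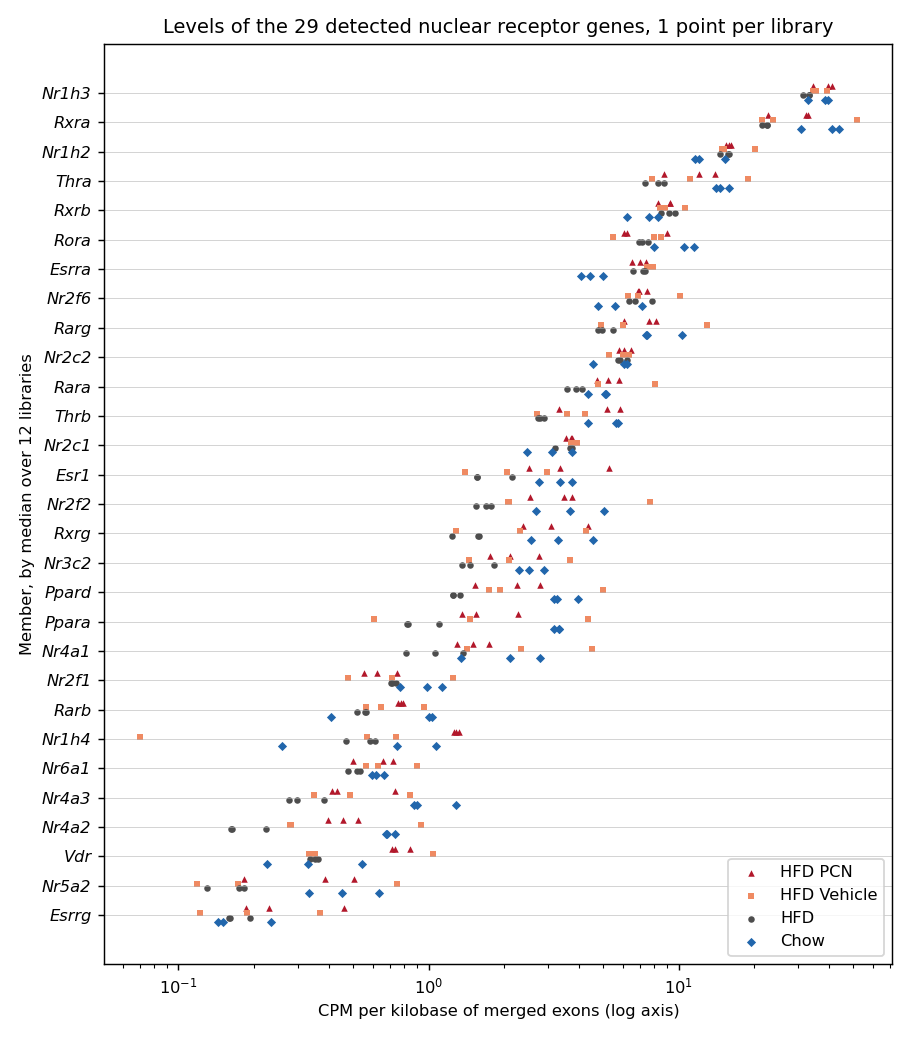
Level of each of the 29 detected members in CPM per kilobase of merged exons (log axis), 1 point per library, with members ordered by their median over 12 libraries. Nr1h3 and Rxra lie at the top, at 21.5 CPM per kilobase or more in every library, and Esrrg lies lowest by its median.

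The NR4A receptors Nr4a1, Nr4a2 and Nr4a3 are immediate early genes, which many stimuli induce within minutes and for which no classical hormone is known. The letters TGACG are the core of the element bound by CREB, a factor that carries the cyclic AMP signal. The 3 NR4A promoters are shown because these receptors were all called lower in HFD, as given further on. Each window runs 250 bases before to 50 bases after the RefSeq start (build GRCm38.p6), at chr15:101266596-101266895 on the plus strand for Nr4a1, chr2:57123954-57124253 on the minus strand for Nr4a2 and chr4:48045055-48045354 on the plus strand for Nr4a3. Capitals mark TGACG or its reverse complement CGTCA.
Nr4a1: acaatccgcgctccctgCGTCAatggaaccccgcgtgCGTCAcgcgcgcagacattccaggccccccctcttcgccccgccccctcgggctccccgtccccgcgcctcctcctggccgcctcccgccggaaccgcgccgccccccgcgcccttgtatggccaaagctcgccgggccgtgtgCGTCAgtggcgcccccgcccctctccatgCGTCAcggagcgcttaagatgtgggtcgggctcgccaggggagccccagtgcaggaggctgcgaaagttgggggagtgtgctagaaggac
Nr4a2: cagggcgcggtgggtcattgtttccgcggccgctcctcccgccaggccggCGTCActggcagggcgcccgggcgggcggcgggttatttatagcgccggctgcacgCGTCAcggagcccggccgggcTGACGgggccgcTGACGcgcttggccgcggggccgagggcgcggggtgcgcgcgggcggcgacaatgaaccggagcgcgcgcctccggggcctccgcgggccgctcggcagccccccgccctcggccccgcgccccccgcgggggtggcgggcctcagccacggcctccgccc
Nr4a3: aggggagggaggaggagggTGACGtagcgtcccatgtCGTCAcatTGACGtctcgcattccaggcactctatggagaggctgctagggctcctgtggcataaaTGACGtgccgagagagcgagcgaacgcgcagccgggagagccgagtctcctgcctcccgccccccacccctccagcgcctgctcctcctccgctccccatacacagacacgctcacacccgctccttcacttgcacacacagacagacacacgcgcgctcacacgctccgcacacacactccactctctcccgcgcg

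Each of the 3 windows held 4 matches, and they were the member windows with 4 or more among 58 windows of 39 members (Thra and Nr5a1 were not matched). At least 1 match stood in 17 of the 58 member windows and in 20.8% of all 32851 promoters in the table, and 4 or more stood in 0.231% of these. The letters AAAGGTCA, to which NR4A receptors bind as monomers, stood in 2 member windows and in 1.51% of all promoters. These windows were chr2:27709042-27709341 for Rxra and chr1:167618015-167618314 for Rxrg. The other window of each gene, at chr2:27676951-27677250 and chr1:167598112-167598411, had 0 matches. The shorter AGGTCA, which is part of it and is the half-site of many receptors of the family, stood in 9 member windows and 16.3% of all promoters. A match describes letters only.

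The diet comparison asked how a high-fat diet changes the tissue. Of 29 members tested, 20 were lower and 0 higher in HFD, by 1.36-fold to 4.47-fold, and 12 of the 20 by at least 2-fold. Over all 16216 genes tested, 30.0% were lower and 29.8% higher, 59.8% in all (edgeR quasi-likelihood test, adjusted p under 0.05). The median log2 fold change was -0.81 over the members tested and -0.031 over all genes. The libraries of HFD and Chow did not overlap for 21 members, all lower in HFD, against 33.9% of all genes lower and 34.6% higher, 68.5% in all. The members tested are those that passed the filter on low counts, and 8 of the 37 members in this table did not.

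Values below are CPM scaled within the comparison (TMM), in the order HFD 4, 30 and 38 and Chow 8, 17 and 19; means carry the SD over 3 libraries. Both fatty acid receptors among the members, Ppara and Ppard, fell. Pparg is outside the list of members and is counted among the adipocyte markers. Ppara, which drives fatty acid oxidation, had 3.88, 2.85 and 2.91 CPM in HFD, against 12.5, 12.8 and 16.5 CPM in Chow. Its log2 fold change was -2.10 ± 0.20 (standard error; adjusted p = 6.52e-05 by edgeR). Ppard, the more widely expressed fatty acid receptor, had 8.71, 9.14 and 8.56 CPM in HFD, against 23.1, 25.6 and 38.7 CPM in Chow, for a log2 fold change of -1.72 ± 0.20 (standard error; adjusted p = 1.68e-04 by edgeR). Every HFD library was below every Chow library for both, and the HFD libraries of Ppard lay within 1 CPM of each other.

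Of the RXRs, the common partners, Rxra and Rxrg fell and Rxrb did not pass the test. Rxra had 113, 107 and 112 CPM in HFD, against 219, 249 and 219 CPM in Chow, for a log2 fold change of -1.05 ± 0.11 (standard error; adjusted p = 9.94e-05 by edgeR). Rxrg had 2.62, 3.28 and 3.35 CPM in HFD, against 10.2, 7.89 and 7.65 CPM in Chow, for a log2 fold change of -1.48 ± 0.20 (standard error; adjusted p = 4.12e-04 by edgeR). Rxrb had 31.2, 33.2 and 35.1 CPM in HFD, against 29.4, 34.5 and 32.1 CPM in Chow (edgeR adjusted p = 0.709). The libraries of Rxrb overlapped between the diets, while those of Rxra and Rxrg stood apart.

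Shares within the RXR family were set side by side. Per kilobase, Rxra made up 66.7% to 69.7% of RXR in HFD and 77.2% to 79.0% in Chow. Rxrb made up 26.4% to 28.6% in HFD and 14.3% to 15.7% in Chow, and Rxrg 3.83% to 4.87% in HFD and 5.94% to 8.55% in Chow. None of the 3 shares overlapped between HFD and Chow. These shares do not depend on the scaling between libraries, and no test was run on them, since 3 libraries against 3 cannot pass an exact test at 0.05.

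The retinoic acid receptors, which pair with the RXRs, all fell. Rarg had 18.7, 21.2 and 19.2 CPM in HFD, against 31.1, 45.9 and 40.8 CPM in Chow, for a log2 fold change of -0.99 ± 0.15 (standard error; adjusted p = 7.75e-04 by edgeR). Rara had 16.5, 15.4 and 14.3 CPM in HFD, against 21.8, 23.2 and 24.5 CPM in Chow, for a log2 fold change of -0.59 ± 0.11 (standard error; adjusted p = 0.00256 by edgeR). Rarb, whose reads may in part be those of Top2b, had 2.52, 2.68 and 2.69 CPM in HFD, against 5.31, 5.54 and 2.77 CPM in Chow, for a log2 fold change of -0.81 ± 0.28 (standard error; adjusted p = 0.0342 by edgeR). The lowest Chow library of Rarb was just above the HFD libraries, and the call for Rarb was lost without any 1 of HFD 4, HFD 30, HFD 38, Chow 8 and Chow 17, with adjusted p-values of 0.114, 0.0969, 0.0921, 0.0840 and 0.10 in edgeR. Rara made up 39.1% to 43.8% of the retinoic acid receptors per kilobase in HFD and 31.0% to 37.5% in Chow.

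Both thyroid hormone receptors fell to a similar extent. Thra had 37.1, 34.6 and 31.0 CPM in HFD, against 65.5, 77.1 and 84.6 CPM in Chow, for a log2 fold change of -1.14 ± 0.13 (standard error; adjusted p = 1.47e-04 by edgeR). Thrb had 19.1, 18.4 and 19.5 CPM in HFD, against 41.2, 43.4 and 41.8 CPM in Chow, for a log2 fold change of -1.15 ± 0.095 (standard error; adjusted p = 3.47e-05 by edgeR). Thrb had the smallest adjusted p of all members, and its libraries varied little within either diet. Nr1d1, on the opposite strand, covers 5.70% of the Thra exon bases. The vitamin D receptor Vdr averaged 1.81 ± 0.0761 CPM in HFD, against 2.20 ± 0.687 CPM in Chow and was not called (edgeR adjusted p = 0.375).

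The liver X receptors parted. Nr1h3 had 76.7, 71.8 and 76.3 CPM in HFD, against 94.6, 105 and 107 CPM in Chow, for a log2 fold change of -0.45 ± 0.099 (standard error; adjusted p = 0.00487 by edgeR), the smallest fall among the 20. Nr1h2 averaged 47.5 ± 1.73 CPM in HFD, against 48.1 ± 7.55 CPM in Chow (edgeR adjusted p = 0.923). Nr1h3 made up 66.4% to 69.2% of the pair per kilobase in HFD and 72.1% to 76.1% in Chow, with no overlap. The FXR gene Nr1h4 averaged 1.17 ± 0.161 CPM in HFD, against 1.66 ± 0.823 CPM in Chow, with Chow libraries at 2.41, 1.80 and 0.776 CPM (edgeR adjusted p = 0.250). Without Chow 19, the lowest of these, Nr1h4 was called lower in HFD with a log2 fold change of -0.82 and an edgeR adjusted p of 0.0460.

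All NR4A receptors fell. Nr4a2 had 0.613, 0.828 and 0.604 CPM in HFD, against 2.69, 3.12 and 3.55 CPM in Chow, for a log2 fold change of -2.16 ± 0.27 (standard error; adjusted p = 2.72e-04 by edgeR), the largest fall of any member tested. Nr4a3 had 1.53, 1.62 and 2.08 CPM in HFD, against 5.09, 8.04 and 6.98 CPM in Chow, for a log2 fold change of -1.95 ± 0.25 (standard error; adjusted p = 3.17e-04 by edgeR). Nr4a1 had 2.62, 3.38 and 4.39 CPM in HFD, against 4.6, 10.2 and 9.64 CPM in Chow, for a log2 fold change of -1.24 ± 0.33 (standard error; adjusted p = 0.0122 by edgeR). Chow 8 was low for Nr4a1, just above HFD 38, and the call was lost without HFD 4 (edgeR adjusted p = 0.0519). As a description, Nr4a1 made up 64.7% to 71.6% of the NR4A family per kilobase in HFD and 46.4% to 58.0% in Chow.

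**Figure D2:**
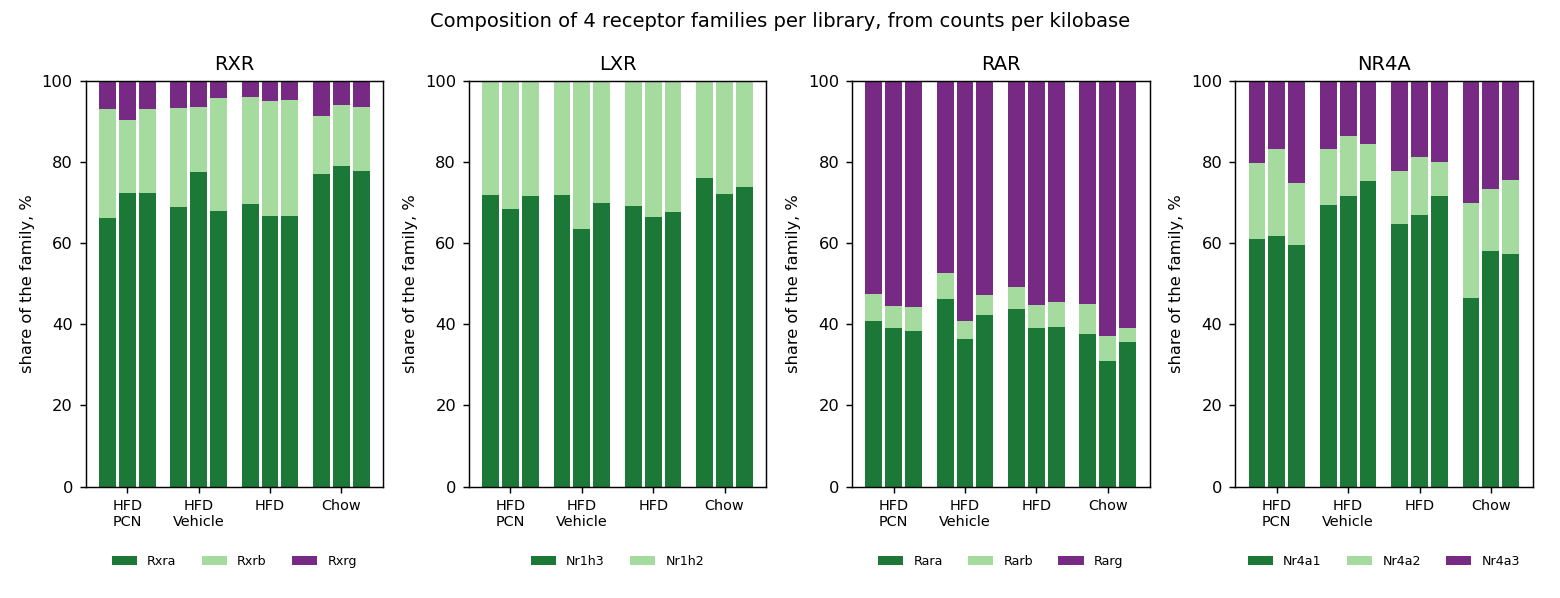
Share of each member in its family (percent, from counts per kilobase of merged exons), 1 bar per library, for the RXR, LXR (liver X), RAR (retinoic acid) and NR4A receptors in HFD PCN, HFD Vehicle, HFD and Chow. Rxrb takes 26.4% to 28.6% of RXR in the HFD bars and 14.3% to 15.7% in the Chow bars, and the middle HFD Vehicle bar, library 50, has 16%.

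Of the steroid receptors, the oestrogen receptor alpha gene Esr1 fell. It had 19.7, 26.6 and 19.5 CPM in HFD, against 50.0, 48.2 and 49.2 CPM in Chow, for a log2 fold change of -1.16 ± 0.14 (standard error; adjusted p = 2.18e-04 by edgeR). The mineralocorticoid receptor Nr3c2, which binds aldosterone and glucocorticoids, had 8.71, 10.8 and 8.07 CPM in HFD, against 15.8, 19.7 and 19.4 CPM in Chow, for a log2 fold change of -0.99 ± 0.16 (standard error; adjusted p = 9.66e-04 by edgeR). Neither gene overlapped between the diets. The oestrogen-related receptor Esrra, a regulator of mitochondrial genes, averaged 28.2 ± 1.56 CPM in HFD, against 22.0 ± 5.73 CPM in Chow and was not called (edgeR adjusted p = 0.103). Chow 19 was the highest Chow library of Esrra, at 28.4 CPM, and without it Esrra was called higher in HFD, with a log2 fold change of 0.61 and an edgeR adjusted p of 0.00383.

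Oestrogen receptor beta, Esr2, was too weak for the filter. It had 0, 0 and 0 counts in HFD 4, 30 and 38, against 4, 9 and 4 counts in Chow 8, 17 and 19. Chow libraries thus all held reads and HFD libraries none. Against a floor of 3 counts for the whole HFD group, Esr2 was 12.3-fold lower in HFD. The Chow counts were taken as observed, without their counting error, so this is not a strict lower limit. The authors' deposited table gives a log2 fold change of -3.75 and an adjusted p of 0.000319 for it. In edgeR with no filter its adjusted p was 0.000323. The authors' deposited table calls 18 of 37 members lower and 0 higher in HFD, and of its 30327 genes 4549 lower and 5050 higher, 31.7% in all.

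The COUP transcription factors, orphan receptors of development and blood vessels, had 2 of 3 members called lower. Nr2f2 had 14.1, 13.2 and 12.2 CPM in HFD, against 22.5, 45.3 and 41.2 CPM in Chow, for a log2 fold change of -1.46 ± 0.24 (standard error; adjusted p = 0.00113 by edgeR). Nr2f1 had 3.47, 3.31 and 3.29 CPM in HFD, against 3.82, 6.01 and 6.54 CPM in Chow, for a log2 fold change of -0.69 ± 0.24 (standard error; adjusted p = 0.0365 by edgeR). Chow 8 was the lowest Chow library for both. The call for Nr2f1 was lost without any 1 of HFD 4, HFD 30, HFD 38, Chow 17 and Chow 19, with edgeR adjusted p-values between 0.0941 and 0.108. Nr2f6 averaged 19.0 ± 2.09 CPM in HFD, against 19.0 ± 3.14 CPM in Chow (edgeR adjusted p = 0.993).

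Rora, an orphan receptor that shares its sites with the clock repressors of the REV-ERB group, had 90.8, 82.5 and 85.4 CPM in HFD, against 147, 143 and 135 CPM in Chow. Its log2 fold change was -0.72 ± 0.099 (standard error; adjusted p = 4.23e-04 by edgeR). Nr5a2 (liver receptor homolog 1) had 0.953, 0.695 and 0.988 CPM in HFD, against 1.91, 3.90 and 3.44 CPM in Chow, for a log2 fold change of -1.81 ± 0.34 (standard error; adjusted p = 0.00223 by edgeR). Both stood apart between the diets. Nr6a1, the germ cell nuclear factor, had 4.77, 5.23 and 5.10 CPM in HFD, against 6.51, 7.49 and 8.31 CPM in Chow, for a log2 fold change of -0.56 ± 0.17 (standard error; adjusted p = 0.0214 by edgeR). The call for Nr6a1 was lost without any 1 of HFD 4, HFD 30, HFD 38 and Chow 19, with edgeR adjusted p-values of 0.0914, 0.0650, 0.0699 and 0.0506.

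The testicular receptors Nr2c1 and Nr2c2, orphan receptors that are widely expressed, did not pass. Nr2c2 averaged 80.8 ± 2.75 CPM in HFD, against 91.1 ± 5.30 CPM in Chow, without overlap (edgeR adjusted p = 0.150). Nr2c1 averaged 14.9 ± 1.13 CPM in HFD, against 15.5 ± 1.14 CPM in Chow (edgeR adjusted p = 0.682). Esrrg averaged 0.970 ± 0.111 CPM in HFD, against 1.19 ± 0.240 CPM in Chow (edgeR adjusted p = 0.386). Among the members below detection, Hnf4a had 11 counts in HFD and 18 in Chow, of which 16 came from Chow 8 alone. Rorb had 15 counts in HFD and 23 in Chow, 0.301 times the rate after depth, with an interval from counting error of 0.146 to 0.603, and an edgeR adjusted p of 0.0499 with no filter. Esrrb had 3 counts in HFD and 9 in Chow, Nr5a1 had 6 in HFD and 3 in Chow, and Pgr had 0 in HFD and 1 in Chow.

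**Figure D3:**
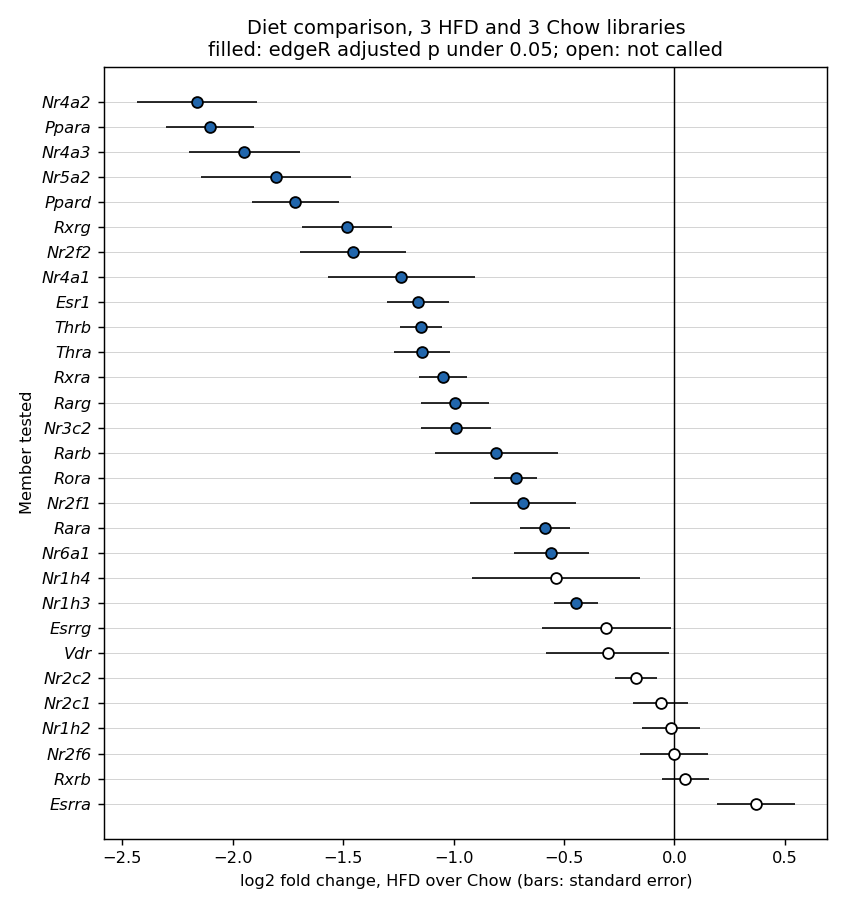
Log2 fold change of HFD over Chow with its standard error for the 29 members tested, from the 3 HFD and 3 Chow libraries; filled points passed an edgeR adjusted p of 0.05. All 20 filled points lie left of 0, between -2.16 for Nr4a2 and -0.45 for Nr1h3, and Esrra lies farthest to the right among the open points.

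Markers of the cell types in the tissue also differed between the diets. Of 14 adipocyte markers tested, 13 were lower and 0 higher in HFD. The 13 with a row in both deposited tables, called or not, summed to 8889 to 10863 CPM in HFD and 19163 to 26898 CPM in Chow. Retn, which was called lower, is not in these sums. All 10 endothelial markers were lower, with sums of 587 to 602 CPM in HFD and 1186 to 1597 CPM in Chow. Of 15 macrophage markers, 13 were higher and 0 lower, with sums of 15471 to 16074 CPM in HFD and 4710 to 8121 CPM in Chow, and of 11 adipose progenitor markers 8 were higher and 0 lower. None of the 13 adipocyte markers with a row in both deposited tables was at 0 in any library. The part of these markers in the receptor values was not tested, and fewer cells of a type and less RNA per cell cannot be told apart in whole tissue.

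Fewer markers of other cell types were called. Of 10 T and NK cell markers, 2 were higher (Il7r and Trac) and 0 lower, and of 10 mesothelial markers 0 were called in either direction. The 3 intestinal markers tested gave 2 lower (Lgals4 and Vil1), the 2 liver markers 1 higher (Ahsg) and the 2 epididymis and testis markers 1 lower (Amh). The intestinal markers summed to 10.7 to 11.3 CPM in HFD and 32.3 to 38.8 CPM in Chow.

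Genes that act with the receptors, or that receptors are known to switch on, were counted in the same way. Over all genes tested, 29.8% were higher and 30.0% lower in HFD, 59.8% in all, with a median log2 fold change of -0.031. Of 16 coactivators tested, 2 were higher and 10 lower in HFD, with a median log2 fold change of -0.59. Of 10 corepressors, 2 were higher and 5 lower, with a median of -0.39. Nrip1, which stands in both lists and represses energy-burning genes in fat, averaged 115 ± 14.1 CPM in HFD, against 342 ± 81.4 CPM in Chow. The corepressor Ncor1 averaged 251 ± 1.29 CPM in HFD, against 491 ± 81.6 CPM in Chow. The clock repressor Nr1d1, a nuclear receptor outside the list of members, averaged 17.0 ± 3.81 CPM in HFD, against 103 ± 41.4 CPM in Chow.

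Genes that the receptors are known to induce were called in both directions, as were all genes tested. Of all 16216 genes, 29.8% were higher and 30.0% lower in HFD, 59.8% in all (edgeR). These shares are the background for each list below, and no list was tested against them. Of 19 genes of the PPAR alpha and delta list, 5 were higher and 5 lower. Plin2, the protein coat of lipid droplets, averaged 2399 ± 129 CPM in HFD, against 411 ± 137 CPM in Chow, while the mitochondrial carrier Ucp3 averaged 9.02 ± 1.5 CPM in HFD, against 52.8 ± 11.8 CPM in Chow. Cpt1a, which lets fatty acids into mitochondria, rose with Plin2, with 284 ± 5.49 CPM in HFD, against 99.4 ± 21.6 CPM in Chow. Of 14 liver X receptor targets, 6 were higher and 6 lower. Mylip, which degrades the LDL receptor, averaged 47.1 ± 2.73 CPM in HFD, against 103 ± 5.00 CPM in Chow, and Arl4c averaged 15.4 ± 0.839 CPM in HFD, against 4.71 ± 0.858 CPM in Chow.

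Of 11 PXR and CAR target genes tested, 2 were higher and 6 lower in HFD. The drug transporter Abcb1a averaged 13.3 ± 1.13 CPM in HFD, against 41.1 ± 4.13 CPM in Chow, with 10.1% of its exon bases under another gene, and the glutathione transferase Gsta4 0.879 ± 0.393 CPM in HFD, against 8.09 ± 1.32 CPM in Chow. Gadd45b, a stress gene, was higher, with 25.4 ± 0.664 CPM in HFD, against 5.62 ± 2.02 CPM in Chow. Of 11 retinoid genes, 6 were higher and 3 lower. Rbp4, the carrier of retinol in blood, averaged 24.5 ± 1.64 CPM in HFD, against 215 ± 42.5 CPM in Chow, whereas the retinol dehydrogenase Dhrs9 averaged 102 ± 11.3 CPM in HFD, against 1.59 ± 1.14 CPM in Chow.

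Of 9 thyroid hormone genes, 2 were higher and 2 lower. The lipogenic gene Thrsp averaged 72.5 ± 17.4 CPM in HFD, against 204 ± 53.2 CPM in Chow, and Dio2, the enzyme that makes active thyroid hormone, 3.05 ± 0.979 CPM in HFD, against 0.150 ± 0.0757 CPM in Chow. The 5 vitamin D genes gave 3 higher and 2 lower, the 11 genes of the oestrogen-related receptors 2 and 2, and the 6 oestrogen targets 3 and 2. The member Esr1 is itself 1 of these 2 lower oestrogen targets, and the uncalled member Esrra is 1 of the 11 genes of the oestrogen-related receptors. Among the called genes of these lists, Cd14, a co-receptor for bacterial lipopolysaccharide, averaged 55.0 ± 5.04 CPM in HFD, against 9.60 ± 2.43 CPM in Chow. The angiogenic factor Vegfa averaged 38.7 ± 5.16 CPM in HFD, against 324 ± 73.2 CPM in Chow, and the chemokine Cxcl12 63.4 ± 4.04 CPM in HFD, against 190 ± 20.5 CPM in Chow. Hr, a corepressor that thyroid hormone induces, averaged 21.9 ± 3.92 CPM in HFD, against 185 ± 28.0 CPM in Chow. Both bile acid genes tested were lower: Klb, the co-receptor of FGF21, averaged 16 ± 2.49 CPM in HFD, against 57.7 ± 1.94 CPM in Chow, and Cyp27a1, a sterol hydroxylase, 45.1 ± 4.43 CPM in HFD, against 74.7 ± 6.51 CPM in Chow.

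The comparison of HFD PCN with HFD Vehicle asked what the PXR ligand adds. No member was called among 29 tested, where 0% of 16563 genes were called and the smallest adjusted p was 0.999857 (edgeR). At an unadjusted p under 0.05, edgeR had 0 members, DESeq2 1 and limma-voom 1, and DESeq2 called 1 gene in all and 0 members. The median log2 fold change was -0.15 over the members and -1.79e-04 over all genes. All 10 tested PXR and CAR target genes were likewise not called. The libraries did not overlap for 1 member that was higher (Nr1h4) and 2 that were lower (Esrra and Nr2c1), against 3.43% of all genes higher and 2.69% lower, 6.12% in all.

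Nr1h4 had 2.97, 2.92 and 2.85 CPM in HFD PCN 5, 11 and 27, against 1.30, 1.81 and 0.166 CPM in HFD Vehicle 23, 50 and 55. The HFD PCN libraries were nearly equal and all higher, while HFD Vehicle 55 held 3 counts only. Its log2 fold change was 1.45 ± 0.68 (SE, edgeR unadjusted p = 0.0730), and 1.92 without HFD Vehicle 50 (edgeR adjusted p = 0.800). Mesothelial markers, 10 of 10 with a positive log2 fold change and 0 called, summed to 84.6 to 158 CPM in HFD PCN and to 13.8, 31.1 and, in HFD Vehicle 50, 92.8 CPM in HFD Vehicle. Their part in the Nr1h4 values was not tested.

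The RXRs overlapped between the injected groups. Rxra had 121, 178 and 172 CPM in HFD PCN, against 129, 297 and 121 CPM in HFD Vehicle. Rxrb had 35.9, 32.3 and 35.9 CPM in HFD PCN, against 33.3, 44.6 and 36.0 CPM in HFD Vehicle, and Rxrg 5.33, 9.81 and 6.93 CPM in HFD PCN, against 5.27, 10.4 and 3.04 CPM in HFD Vehicle. HFD Vehicle 50 was the highest of the 6 libraries for each of them. Without it, the log2 fold change of Rxra was 0.33, where it was -0.21 with it, and that of Rxrg was 0.81 in place of 0.25, neither of them called (edgeR adjusted p = 0.800 for each). Rxrb was at -0.13 with that library and 0.00065 without it (edgeR adjusted p = 0.999 without it). Without it the median over the members turned to 0.20, and 26 of 29 had a positive log2 fold change, against 9 of 29 with it.

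Esr1 and Nr4a1 had the next largest differences with PCN. Esr1 had 33.7, 71.1 and 44.7 CPM in HFD PCN, against 27.9, 43.0 and 19.5 CPM in HFD Vehicle, for a log2 fold change of 0.73 ± 0.38 (SE, edgeR unadjusted p = 0.0984). Nr4a1 had 4.47, 5.23 and 6.00 CPM in HFD PCN, against 4.98, 16.6 and 8.45 CPM in HFD Vehicle, for a log2 fold change of -0.93 ± 0.45 (SE, edgeR unadjusted p = 0.0790). The libraries of both genes overlapped. Without HFD Vehicle 50 the value of Esr1 was 1.06 (edgeR adjusted p = 0.800) and that of Nr4a1 -0.36 (edgeR adjusted p = 0.806). Esr1 and Nr4a1 were singled out after their values were seen.

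The injected and uninjected mice on the high-fat diet stand in different deposited tables, both of raw counts, and were compared over the 37 members in both. HFD Vehicle against HFD gave no called member among 29 and 0% of 16781 genes (edgeR). At an unadjusted p under 0.05 edgeR had 4 members and 1639 genes, and DESeq2 called 91 genes and 0 members. Even so, 28 of 29 members had a positive log2 fold change, with a median of 0.49 against 0.0039 over all genes. The libraries did not overlap for 10 members, all higher in HFD Vehicle, against 13.8% of all genes higher and 14.2% lower, 28.0% in all. Without HFD Vehicle 50 the median fell to 0.16, 20 of 29 members had a positive log2 fold change, and 172 genes (0.993%) were called but again 0 members.

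Markers of cell types also differed in HFD Vehicle against HFD, although 0 of the following were called. Their log2 fold changes include HFD Vehicle 50 and were not computed without it. The log2 fold change was positive in 12 of 13 adipocyte markers (median 0.82) and in 10 of 10 endothelial markers (median 0.67). It was negative in 12 of 15 macrophage markers (median -0.60) and in 9 of 11 adipose progenitor markers (median -0.57). Adipocyte markers summed to 7916 and 11704 CPM in HFD Vehicle 55 and 23 and 19272 CPM in HFD Vehicle 50, against 8889 to 10863 CPM in HFD. HFD Vehicle 23 and 55 thus lay on either side of the HFD range. In these libraries endothelial markers summed to 696 to 720 CPM, against 587 to 602 CPM in HFD. Adipose progenitor markers summed to 6603 to 8567 CPM in them, against 9370 to 10989 CPM in HFD. Macrophage markers, given above for HFD Vehicle, summed to 15471 to 16074 CPM in HFD. Their part in the receptor values was not tested.

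Nr4a1 had 4.90, 16.9 and 8.37 CPM in HFD Vehicle 23, 50 and 55, against 2.85, 3.66 and 4.78 CPM in HFD 4, 30 and 38. Nr4a2 had 1.11, 4.05 and 1.15 CPM in HFD Vehicle, against 0.667, 0.898 and 0.657 CPM in HFD. Every HFD Vehicle library was above every HFD library for both, with HFD Vehicle 50 far above the rest. The edgeR unadjusted p was 0.0241 for Nr4a1 and 0.0475 for Nr4a2. Ppard and Rara were the other 2 of the 4, with edgeR unadjusted p-values of 0.0313 and 0.0462. Without HFD Vehicle 50 the log2 fold change of Nr4a1 was 0.82, where it was 1.41 with it, and that of Nr4a2 was 0.59 in place of 1.43. Ppard was at 0.52 in place of 1.22 and Rara at 0.30 in place of 0.65. None of the 4 was called without it, with edgeR adjusted p-values of 0.232, 0.394, 0.0919 and 0.207 in that order.

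HFD Vehicle 50 was set against the 20 members that fell with the diet, on a scale common to all 12 libraries. It lay above every HFD library for 20 of the 20, where 89.3% of the 4810 diet-lowered genes in both tables did. It reached the lowest Chow library for 15 of the 20, against 68.2% of these genes. HFD Vehicle 23 and 55 lay above every HFD library for 15 and 10 of the 20 members, against 64.9% and 47.2% of the diet-lowered genes. HFD PCN 5, 11 and 27 did so for 12, 18 and 18 of the 20, against 53.9%, 85.9% and 73.1% of these genes. No test was run on these shares. The members and the diet-lowered genes were both chosen as low in these HFD libraries against these Chow libraries. A place above HFD was thus favoured in advance for any other library.

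**Figure D4:**
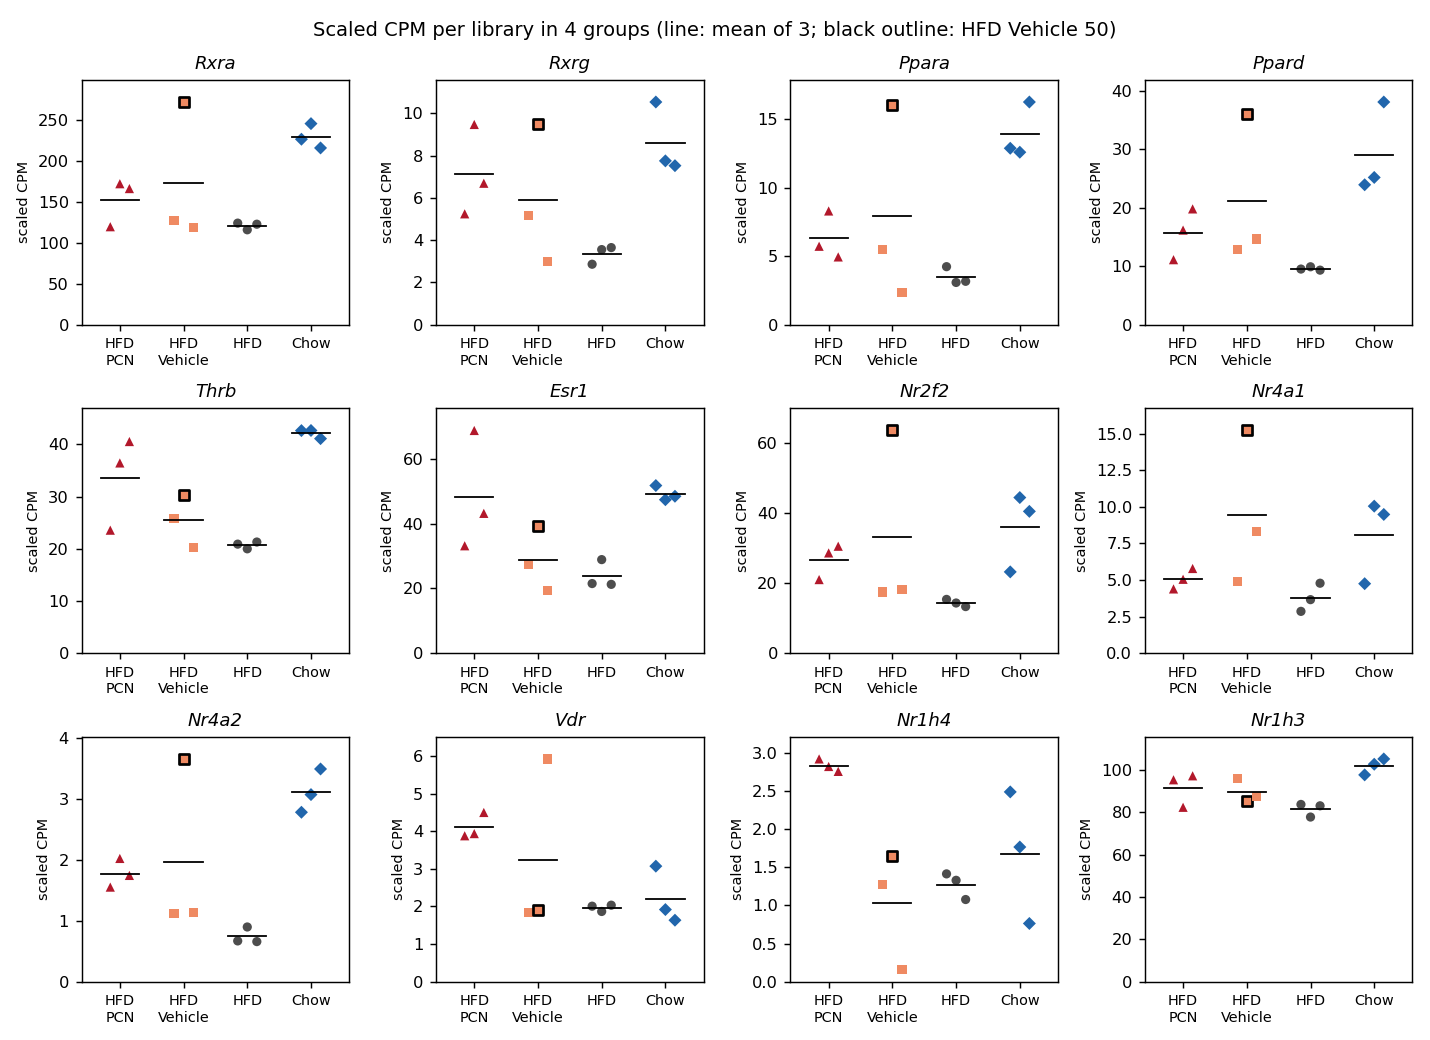
CPM of 12 members in each library, scaled over all 12 libraries (linear axes from 0), with a line at the mean of 3 and a black outline for HFD Vehicle 50. That library lies above the lowest Chow library for Rxra, Rxrg, Ppara and Ppard, the 3 HFD PCN libraries of Nr1h4 lie above all other libraries, and HFD Vehicle 55 is the highest library of Vdr.

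In HFD PCN against HFD, 4 members were called higher and 0 lower, where 2.97% of 16927 genes were higher and 1.35% lower, 4.32% in all (edgeR). PCN and the injection cannot be told apart here. Vdr had 3.97, 4.08 and 4.73 CPM in HFD PCN 5, 11 and 27, against 2.06, 1.91 and 2.10 CPM in HFD 4, 30 and 38, for a log2 fold change of 1.07 ± 0.17 (standard error; adjusted p = 0.0289 by edgeR). Nr1h4 had 2.99, 2.92 and 2.90 CPM in HFD PCN, against 1.45, 1.36 and 1.11 CPM in HFD, for a log2 fold change of 1.15 ± 0.19 (standard error; adjusted p = 0.0289 by edgeR). In both genes the 3 libraries of each group lay close together and the groups stood clear of each other.

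Nr2f2 had 21.5, 29.7 and 32.2 CPM in HFD PCN, against 15.8, 14.7 and 13.7 CPM in HFD, for a log2 fold change of 0.91 ± 0.16 (standard error; adjusted p = 0.0327 by edgeR). Nr4a2 had 1.59, 2.09 and 1.83 CPM in HFD PCN, against 0.686, 0.919 and 0.678 CPM in HFD, for a log2 fold change of 1.24 ± 0.25 (standard error; adjusted p = 0.0410 by edgeR). For both, HFD PCN 5 was the lowest HFD PCN library and still above HFD. Of the 4 calls, 0 remained without HFD 4, without HFD 30, without HFD 38 or without HFD PCN 27, and with all 12 libraries in one fit. Over all genes, 0, 1, 0 and 4 were called without these 4 libraries in turn, and 0 in the one fit. Without HFD PCN 5 there were 15 member calls, all higher, where 16.3% of all genes were called higher and 14.7% lower, 31.0% in all.

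In total 13 members did not overlap, all higher in HFD PCN, against 17.9% of all genes higher and 19.5% lower, 37.4% in all. Rxrg, at 5.37, 9.81 and 7.04 CPM in HFD PCN against 2.93, 3.64 and 3.76 CPM in HFD, came closest to a call (edgeR adjusted p = 0.0513). Mesothelial, endothelial and adipocyte markers had positive log2 fold changes in 9 of 10, 10 of 10 and 13 of 13 tested, of which 1, 2 and 2 were called higher. Negative log2 fold changes stood in 13 of 15 macrophage markers (median -0.64), in 9 of 11 adipose progenitor markers (median -0.37) and in 9 of 10 T and NK cell markers (median -0.81). Of these, 3 progenitor markers were called lower (Pi16, Lum and Fap). The part of these markers in the receptor values was not tested. Adipocyte markers summed to 9378 to 19998 CPM in HFD PCN and 8889 to 10863 CPM in HFD, and endothelial markers to 755 to 1317 CPM in HFD PCN and 587 to 602 CPM in HFD. Macrophage markers summed to 8614 to 13316 CPM in HFD PCN and 15471 to 16074 CPM in HFD.

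**Figure D5:**
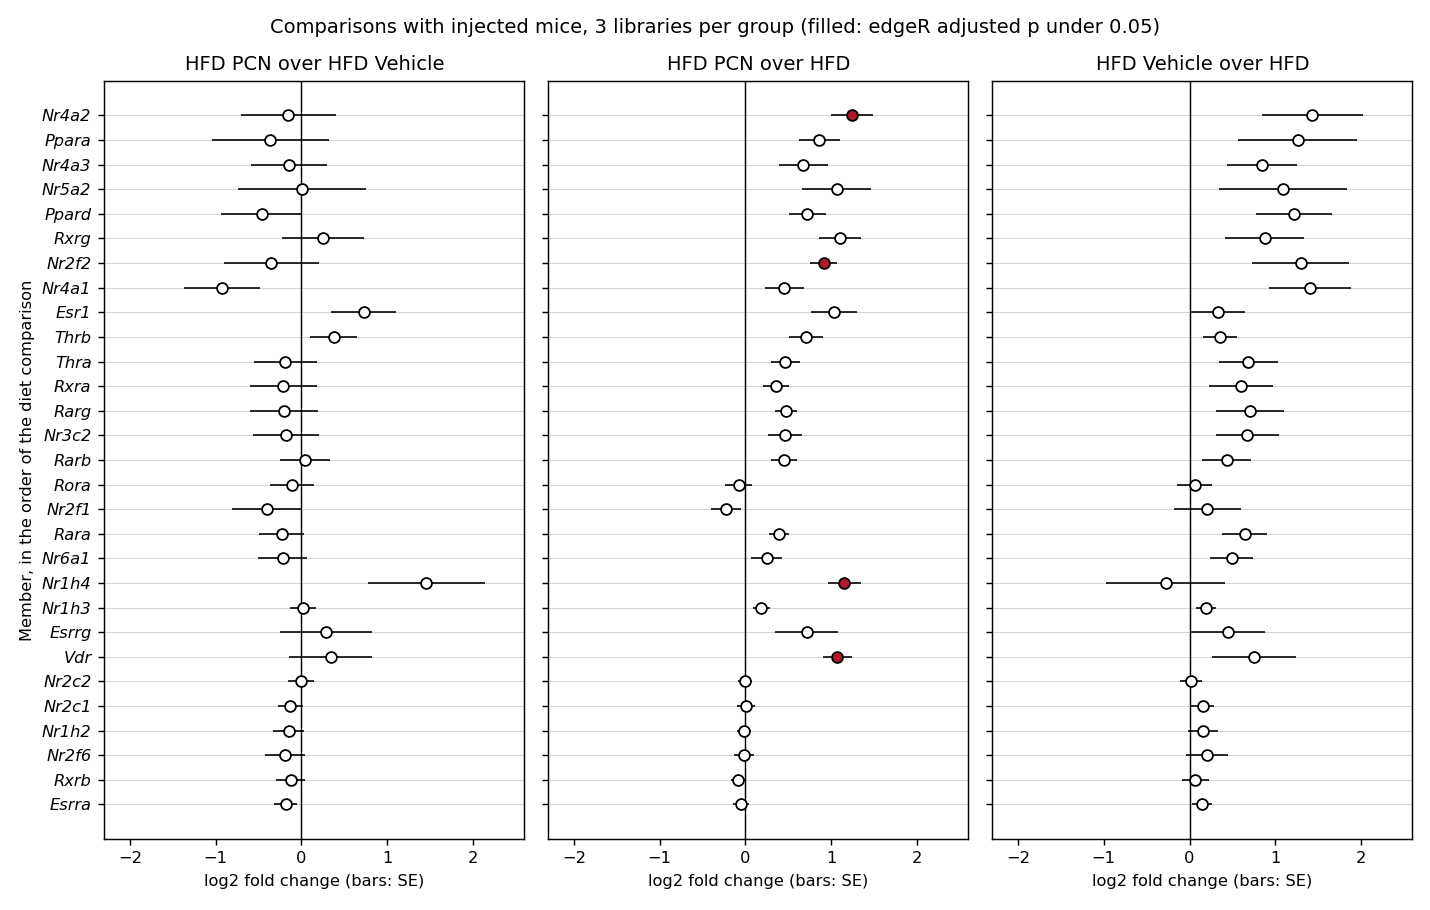
Log2 fold change with its standard error for the members tested in HFD PCN over HFD Vehicle, HFD PCN over HFD and HFD Vehicle over HFD, in the order of the diet comparison; filled points passed an edgeR adjusted p of 0.05. Only Nr4a2, Nr2f2, Nr1h4 and Vdr in the middle panel are filled, all right of 0.

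HFD PCN against Chow gave 8 members lower and 0 higher, where 11.6% of 16188 genes were lower and 15.7% higher, 27.3% in all (edgeR). Diet, PCN and injection cannot be told apart here. The 8 were Nr4a3, Ppara, Ppard, Nr4a2, Nr2f1, Rora, Rxra and Thra. Ppara had 5.44, 7.83 and 4.71 CPM in HFD PCN, against 12.8, 13.1 and 16.9 CPM in Chow, for a log2 fold change of -1.25 ± 0.24 (standard error; adjusted p = 0.00845 by edgeR). Rora had 72.2, 105 and 72.8 CPM in HFD PCN, against 151, 147 and 139 CPM in Chow, for a log2 fold change of -0.80 ± 0.18 (standard error; adjusted p = 0.0151 by edgeR). The libraries did not overlap for 13 members that were lower and 2 that were higher (Vdr and Nr1h4), against 22.9% of all genes lower and 24.5% higher, 47.4% in all. Neither Ppara nor Rora overlapped with Chow, although HFD PCN 11 was clearly the highest HFD PCN library for both. This comparison and the diet comparison share the Chow libraries. Mesothelial markers were called higher in 9 of 10, summing to 84.6 to 158 CPM in HFD PCN and 9.91 to 36.0 CPM in Chow. Macrophage markers were called higher in 13 of 15 (median log2 fold change 2.68), adipocyte markers lower in 8 of 13 (median -1.08) and endothelial markers lower in 5 of 10 (median -0.71). Adipose progenitor markers were called higher in 5 of 11. The part of all these markers in the receptor values was not tested.

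Vdr had 3.68, 3.71 and 4.28 CPM in HFD PCN, against 3.04, 2.0 and 1.71 CPM in Chow, and was not called (edgeR adjusted p = 0.0866). The count of called members fell to 1 without HFD PCN 5, 3 without HFD PCN 27, 1 without Chow 17, 2 without Chow 19 and 2 with all 12 libraries in one fit. All of these were lower, and over all genes the share called lower was 4.42%, 5.05%, 5.31%, 4.49% and 4.77% in that order. Without Chow 8 there were 12 calls, 1 of them higher, where 12.9% of all genes were lower and 16.5% higher.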

How the data were processed

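RNA of gonadal fat was sequenced, and the authors deposited 2 tables of read counts per gene, in whole numbers, HFD with Chow and HFD PCN with HFD Vehicle. HISAT2, HTSeq and DESeq2 with GRCm38 (mm10) are named per the submitters' processing notes, without versions; no source used here says whether counting used strand. The other columns used from the deposited tables are the authors' log2 fold changes and adjusted p-values.

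For the tests, edgeR 4.0.16 in R 4.3.3 fitted quasi-likelihood models (TMM, default expression filter, Benjamini-Hochberg over all genes tested, 0.05), each comparison on its own 6 libraries. Tables were joined by gene ID for the 3 comparisons that cross them. CPM within a comparison are TMM-scaled, and levels between genes use the library total and merged exon length (GENCODE vM21). A level is marked uncertain where another gene covers over 10% of the exon bases. Intervals cover counting error only, and a floor covers that of the group without counts only. Alternatives were DESeq2 1.42.0, limma-voom (limma 3.58.1), other scalings, filters and thresholds, and leaving out each library. Promoters are those of RefSeq. No per-sample column was left unmatched. All members are accounted for; per-library values are given for Nr1i2, Nr1i3, Nr1h4, Nr0b2, the RXRs, any member called in HFD PCN against HFD Vehicle and up to 20 members called without overlap in HFD against Chow, and, of each other list, up to 3 called genes of smallest p could be named. Members given by library in the other comparisons were chosen after their values were seen. Members, lists and rules were chosen with earlier results of these data known.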

Additional observations from a re-analysis of the deposited data

How the results depend on the processing

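No paired analysis was possible because the groups share no replicate numbers. In HFD against Chow, 16 of the 20 called members were called in all 15 alternatives, and the exceptions were Nr2f1, Rarb, Nr6a1 and Nr4a1. Leaving out 1 library gave 16 to 20 members called in HFD against Chow, 0 in HFD PCN against HFD Vehicle and in HFD Vehicle against HFD, 0 to 15 in HFD PCN against HFD and 1 to 12 in HFD PCN against Chow. Over all genes these fits called 48.3% to 65.3% in HFD against Chow and 0% in HFD PCN against HFD Vehicle. They called 0% to 0.993% in HFD Vehicle against HFD and 0% to 31.0% in HFD PCN against HFD. In HFD PCN against Chow they called 13.2% to 29.4%. HFD PCN against HFD had 10 of 37 members called with DESeq2, 0 of 30 with all 12 libraries in one fit and 11 of 29 at an adjusted p of 0.1, where 8.71%, 0% and 16% of all genes were called. HFD PCN against Chow had 2 of 30 with all 12 libraries in one fit, where 16% of all genes were called; the cause was not tested. Upper quartile scaling moved the median of all genes in HFD against Chow to -0.13, called Nr2c2 lower (-0.27), and turned Rxrb to -0.046. Esrra was called higher with no filter (0.45).

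Uncalled members near 0 changed sign in HFD against Chow. Nr1h2 was 0.052 with DESeq2, 0.064 with no filter and 0.021 with all 12 libraries. Nr2c1 was 0.0011 with DESeq2 and 0.016 with no filter. Nr2f6 was 0.066 with DESeq2, 0.011 with DESeq2 size factors, 0.077 with no filter, 0.038 with all 12 libraries and 0.0043 without mitochondrial genes. Leaving out 1 library gave in HFD against Chow -0.12 to 0.082 for Nr1h2, -0.088 to 0.017 for Nr2c1, -0.095 to 0.14 for Nr2f6, -0.44 to 0.0057 for Vdr, and in HFD PCN against HFD Vehicle -0.45 to 0.33 for Rxra, -0.21 to 0.00065 for Rxrb, -0.093 to 0.81 for Rxrg. No call was reversed in these alternatives. Depth limits the 9 members below detection, above all Nr1i2, where 10 counts in all cannot show a change between groups.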
